A study of Mus musculus with 8 samples.

Results

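The insulin-like growth factor system was described here by 10 of the 19938 genes measured: the ligands Igf1 and Igf2, the receptors Igf1r and Igf2r, and the binding proteins Igfbp2, Igfbp3, Igfbp4, Igfbp5, Igfbp6 and Igfbp7. They were chosen by gene symbol in the platform annotation, each with 1 probe set, and the rule uses no measured value. The set was, however, drawn up with earlier results of these data known. All were measured on 8 microarrays of RNA from primary mouse embryonic fibroblasts, cells grown out of embryos and used before immortalisation. The labels give 2 lines, A (MEF10) and B (MEF16), each with 2 arrays labelled (-)Tamoxifen (PKM2 expressing) and 2 labelled (+)Tamoxifen (PKM1 expressing). Pyruvate kinase M is a glycolytic enzyme whose gene, Pkm, is spliced to either the PKM1 or the PKM2 isoform. The labels name no strain, embryonic age, allele, dose or time of exposure, nor what acts on tamoxifen in these cells. No group had tamoxifen without the labelled change of isoform, or the change without tamoxifen, so the 2 cannot be told apart. Whether the arrays of a group came from separate cultures is not stated in the labels, and their spread, on which every p-value rests, may be technical. Each line is 1 line, so a difference between A and B is a difference between these lines only.

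IGF1 and IGF2 are secreted growth factors that signal through the IGF1 receptor, a tyrosine kinase, while the IGF2 receptor binds IGF2 and carries it to the lysosome for degradation. The binding proteins hold the ligands in the medium, matrix or circulation, and can limit or prolong their action. Embryonic fibroblasts are a classic system for this pathway, since they secrete ligands and binding proteins and need the IGF1 receptor for normal growth in culture.

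With tamoxifen, Igf1 and Igfbp3 rose over both lines, and every array with tamoxifen lay above every array without it. The Igfbp3 difference measured 1.31 on the log2 scale in line A and 0.46 in line B. These were the only 2 of the 10 genes that passed, both upwards, at an adjusted p under 0.05 by limma over both lines, against 1.32% of all genes (0.808% upwards). The other ligand, Igf2, both receptors and 5 binding proteins did not pass. No gene of the system passed between the lines. Values are log2 expression values, on which a difference of 1 is 2-fold, and the values of different probe sets were not compared with each other.

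**Figure D1:**
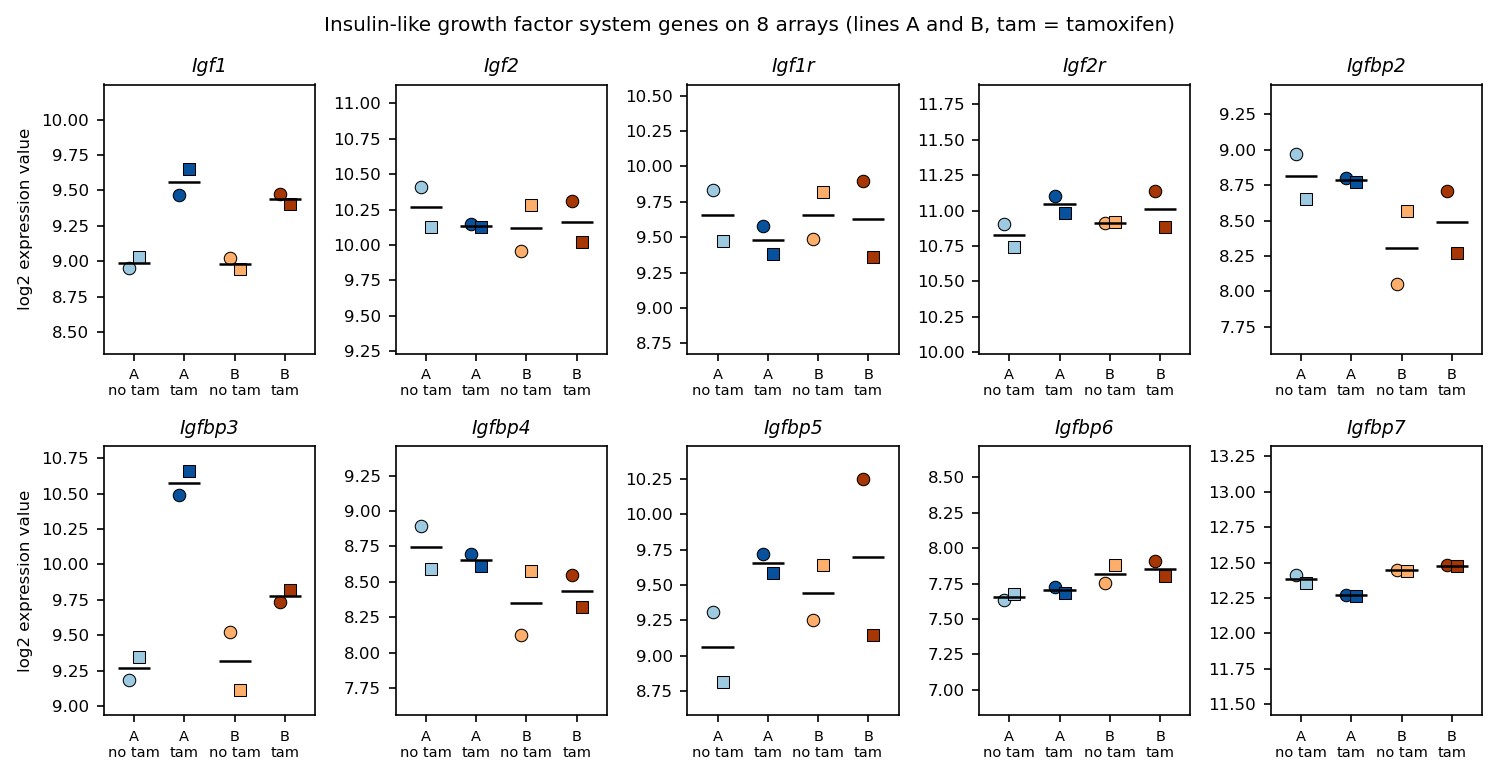
Log2 expression value of each of the 10 genes (vertical axis, the same span of log2 units in each panel) in the 4 groups; points are single arrays (circle, replicate 1; square, replicate 2) and bars are group means. Igf1 and Igfbp3 are higher on all 4 arrays with tamoxifen than on all 4 without, and the 2 line B arrays of a group lie apart for Igfbp2 and Igfbp5.

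After the authors' RMA normalization, which equalises the distributions of the arrays, medians over all probe sets lay between 7.17 and 7.24. Within groups the arrays correlated at 0.9956 and 0.9974 in line A and at 0.9907 and 0.9894 in line B, so line B had the wider spread. The 2 probe sets of Pkm, the gene of the labelled isoforms, differed with tamoxifen by -0.11 (SE 0.15; limma adjusted p 0.89) and -0.41 (SE 0.19; adjusted p 0.52) over both lines. The sources used here do not give the exons they match, so they do not check the labelled isoforms. All 13 fibroblast markers lay above the median gene level of 7.34, whereas 0 of 6 endothelial, 0 of 5 hepatocyte, 2 of 10 epithelial and mammary and 2 of 12 macrophage and blood markers did. Some label fields speak of mammary tumor, but titles, source names and design text say fibroblast.

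Igf1, the main growth-hormone-dependent ligand and a local growth factor in connective tissue, read 8.95 and 9.03 in line A without tamoxifen and 9.47 and 9.65 with it. In line B it read 9.02 and 8.94 without tamoxifen and 9.47 and 9.40 with it. The 4 arrays with tamoxifen all lay above the 4 without, with a gap wider than the spread inside any group. A clean separation of this kind was seen for 2 of the 10 genes and for 5.31% of all genes.

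Igf1 rose by 0.51 over both lines (SE 0.07, 95% interval 0.36 to 0.67; 1.43-fold; limma adjusted p 0.00733, rank 59 of 19938 genes by p). It passed with each array left out in turn, at adjusted p-values between 0.00900 and 0.0469. Within the lines, each tested on its own contrast, Igf1 differed by 0.57 for line A (SE 0.10; adjusted p 0.0569) and by 0.45 for line B (SE 0.10; adjusted p 0.31), so neither line's contrast passed. Igf1 did pass in line A with the line A arrays fitted alone (limma adjusted p 0.0131) and with arrays weighted by their quality (0.00799). It also passed with every probe set tested on its own (0.0452), the difference being 0.57 in each. It did not pass after a median shift (0.0724), a second quantile normalization (0.0649) or with limma's trend and robust options (0.0952). Nor did it pass in line A with any 1 array left out, where the difference was 0.48 to 0.66. The 2 line effects differed by -0.12, B minus A (SE 0.14, 95% interval -0.44 to 0.20), a size within the error. Ranked by group mean, line A with tamoxifen (9.56 ± 0.13, SD, n = 2) and line B with tamoxifen (9.44 ± 0.050) stood first, and did not differ beyond their error (-0.12, SE 0.10). Both groups without tamoxifen stood at the same level, 8.99 ± 0.055 in line A and 8.98 ± 0.055 in line B.

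Igf2, the fetal ligand, expressed from the paternal allele in most embryonic tissue, showed no such order. It read 10.41 and 10.13 in line A without tamoxifen and 10.15 and 10.13 with it, and in line B 9.96 and 10.28 without and 10.31 and 10.02 with it. The groups overlapped in both lines. Its difference over both lines was -0.04 (SE 0.10, 95% interval -0.27 to 0.19; limma adjusted p 0.94), so a change of the size seen for Igf1 lay outside the interval.

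Neither receptor passed. Igf1r, the signalling receptor, read 9.83 and 9.48, then 9.58 and 9.38 with tamoxifen in line A, and 9.49 and 9.82, then 9.90 and 9.36 with tamoxifen in line B. The highest and the lowest of all 8 values belonged to the same group, line B with tamoxifen. The difference over both lines was -0.10 (SE 0.13, 95% interval -0.39 to 0.19; limma adjusted p 0.88).

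Igf2r, the clearance receptor and an imprinted gene in mice, read 10.91 and 10.74 without and 11.10 and 10.98 with tamoxifen in line A. In line B the values were 10.91 and 10.92 without and 11.14 and 10.89 with it. The groups separated in line A and overlapped in line B. Over both lines Igf2r differed by 0.16 (SE 0.08, 95% interval -0.02 to 0.33; limma adjusted p 0.57), which did not pass.

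Igfbp3, the main IGF carrier of the circulation and a secreted inhibitor of growth in many cultured cells, had the widest range of the 10 genes, 1.54 log2 units over the 8 arrays. It read 9.19 and 9.35 without and 10.49 and 10.66 with tamoxifen in line A. In line B it read 9.52 and 9.11 without and 9.74 and 9.82 with it. All arrays with tamoxifen again lay above all without, line A with tamoxifen far above the rest, and line B with tamoxifen only a little above the higher of its untreated arrays.

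Over both lines Igfbp3 rose by 0.88 (SE 0.16, 95% interval 0.52 to 1.24; 1.84-fold; limma adjusted p 0.0292, rank 170). That call was lost on leaving out either line A array without tamoxifen (adjusted p 0.113 and 0.121), either line A array with it (0.145 and 0.124) or replicate 2 of line B without it (0.0753), with differences of 0.76 to 0.89. It was also lost with no term for the line (adjusted p 0.0916). In the line A contrast of the 8-array fit, Igfbp3 was the only 1 of the 10 genes to pass, against 0.502% of all genes. It rose there by 1.31 (SE 0.14, 95% interval 0.98 to 1.63; 2.47-fold; limma adjusted p 0.0119, rank 13). Leaving out any 1 of the 4 line A arrays took the adjusted p in line A to 0.154, 0.0863, 0.122 and 0.226, with differences of 1.22 to 1.39.

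In line B, 0 of the 10 genes passed, against 0.0201% of all genes, and 2 of the 10 had an unadjusted p under 0.05, against 4.82% of all genes. Igfbp3 was 1 of those 2, with a difference of 0.46 (SE 0.14, 95% interval 0.14 to 0.78; limma adjusted p 0.72), and Igf1 was the other. The Igfbp3 effect of line B minus that of line A was -0.85 (SE 0.20, 95% interval -1.30 to -0.39), with an unadjusted p of 0.00247, rank 20 of all genes. No gene at all passed that test of the difference (0 of 10 members, 0% of all genes; limma adjusted p 1.00 for Igfbp3), and 1 of the 10 members and 2.83% of all genes had an unadjusted p under 0.05. By group mean, Igfbp3 stood at 10.57 ± 0.12 in line A with tamoxifen, 9.78 ± 0.059 in line B with it, 9.32 ± 0.29 in line B without and 9.27 ± 0.12 in line A without (SD, n = 2). The last 2 differed by 0.05 (SE 0.14), less than the spread inside line B.

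**Figure D2:**
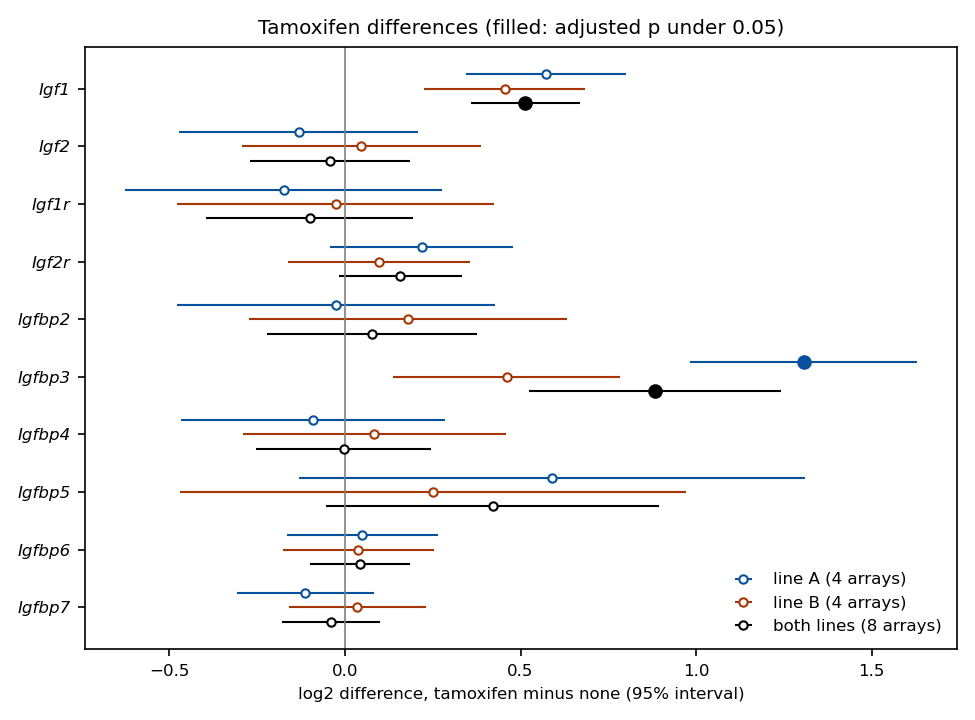
Log2 difference, tamoxifen minus none (horizontal axis), of each gene in line A, in line B and over both lines, with the 95% interval of the limma fit; filled points have an adjusted p under 0.05 over all genes. Igf1 differed by 0.57 in line A and 0.45 in line B, Igfbp3 by 1.31 and 0.46, and the interval of Igfbp5 includes 0 in each.

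Since Igf1 and Igfbp3 moved together with tamoxifen, the 250 bases before the transcription start that the RefSeq table lists for each are shown, on the coding strand, with motif matches in capitals. Both starts lie inside the span that RefSeq annotates for the gene, so they are starts of some of its transcripts and not the outermost ones. The Igf1 window lies at chr10:87860861-87861110 (GRCm38.p6, plus strand) and the Igfbp3 window at chr11:7213924-7214173 (minus strand).
Igf1: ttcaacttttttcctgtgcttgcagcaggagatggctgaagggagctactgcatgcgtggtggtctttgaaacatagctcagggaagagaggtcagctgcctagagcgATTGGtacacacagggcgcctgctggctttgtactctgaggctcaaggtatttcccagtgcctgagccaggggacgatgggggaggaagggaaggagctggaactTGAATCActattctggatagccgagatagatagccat
Igfbp3: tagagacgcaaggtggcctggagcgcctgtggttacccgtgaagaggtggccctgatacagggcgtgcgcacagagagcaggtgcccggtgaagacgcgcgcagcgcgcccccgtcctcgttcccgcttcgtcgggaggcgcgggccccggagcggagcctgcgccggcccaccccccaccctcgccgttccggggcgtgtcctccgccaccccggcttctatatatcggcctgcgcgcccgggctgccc

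The pair differ in base composition, with 52.8% G and C in the Igf1 window and 73.2% in the Igfbp3 window, against a median of 52.4% over 32851 windows of all genes. Of 6 motifs searched on both strands, the Igf1 window held a CCAAT box (CCAAT, here as ATTGG) 142 bases before the start, a motif found in 33.8% of all windows. It also held an AP-1 site (TGANTCA), the recognition sequence of Jun and Fos proteins, 37 bases before the start, found in 6.75% of all windows. The Igfbp3 window held none of the 6 as spelled here. Looser spellings, such as the tatatat in the Igfbp3 window beside the TATA box string, were not searched. The other motifs were the TATA box (TATAAA, 12.4% of windows), the GC box (GGGCGG, 32.7%), the E-box (CACGTG, 6.02%) and the gamma-activated site (TTCNNNGAA, 7.02%), a STAT recognition sequence. The last was in 0 of the 14 windows of the 10 genes. A match describes letters in the window and says nothing of a factor bound there.

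The genes whose profile over the 8 arrays was most like that of Igf1, by the root mean square difference of profiles centred on their own means, were Bst2 (0.059 log2 units), Ddx58 (0.066) and Akr1c18 (0.070), where Igf1 itself varied by 0.27 about its mean. BST2 (tetherin) holds budding virus at the cell surface, DDX58 (RIG-I) senses viral RNA, and AKR1C18 is a steroid dehydrogenase. Closest to Igfbp3, which varied by 0.54 about its mean, were Itm2a (0.095), a membrane protein, Ecrg4 (0.127), a secreted peptide precursor, and Cp (0.155), the copper carrier ceruloplasmin. Their tamoxifen differences over both lines were 0.52, 0.53 and 0.51 for the Igf1 neighbours and 0.77, 0.77 and 0.80 for the Igfbp3 neighbours. They were picked for likeness, so these values describe the choice and carry no test.

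**Figure D3:**
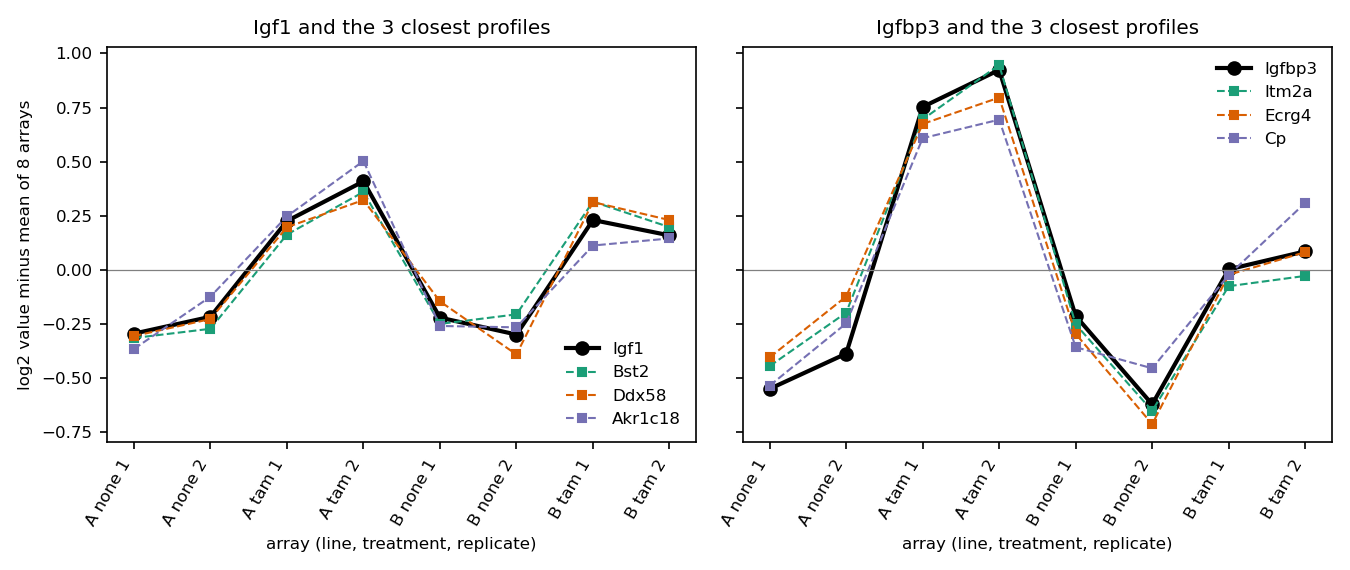
Log2 value minus the gene's own mean over 8 arrays (vertical axis) on each array, for Igf1 (left) and Igfbp3 (right) with the 3 genes of closest profile. The Igf1 group steps up in each line, and the Igfbp3 group steps up further in line A than in line B.

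Igfbp5, a binding protein held in the extracellular matrix, had the widest gap inside a group, 1.10 in line B with tamoxifen. It read 9.31 and 8.82 without and 9.72 and 9.59 with tamoxifen in line A, and 9.25 and 9.64 without and 10.25 and 9.15 with it in line B. The groups separated in line A, but in line B the highest and the lowest value both came from tamoxifen. The difference over both lines was 0.42 (SE 0.21, 95% interval -0.05 to 0.89; limma adjusted p 0.58), 0.59 in line A (SE 0.32) and 0.25 in line B (SE 0.32). It passed where arrays were weighted by their quality (0.65, adjusted p 0.0339) and where replicate 1 of line B without and replicate 2 of line B with tamoxifen were both left out (0.60, adjusted p 0.0149), a setting chosen after seeing the data.

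Igfbp2, the binding protein of fetal serum, is the neighbour of Igfbp5 on chromosome 1. It read 8.97 and 8.65 without and 8.80 and 8.77 with tamoxifen in line A, and 8.05 and 8.57, then 8.71 and 8.27 with tamoxifen in line B. The treated and untreated arrays overlapped in both lines, and the difference over both lines was 0.08 (SE 0.13, 95% interval -0.22 to 0.38; limma adjusted p 0.91).

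Igfbp4, which holds IGF until the protease pappalysin cuts it, differed with tamoxifen by 0.00 over both lines (SE 0.11, 95% interval -0.25 to 0.25; limma adjusted p 1.00). Its values were 8.89 and 8.59 without and 8.69 and 8.61 with tamoxifen in line A, and 8.13 and 8.58, then 8.55 and 8.32 in line B. All line B arrays lay below all line A arrays. Igfbp6, which prefers IGF2 as its ligand, lay between 7.64 and 7.91 on all arrays and differed by 0.04 (SE 0.06, interval -0.10 to 0.19; limma adjusted p 0.89).

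Igfbp7, a matrix protein that binds IGFs only weakly, had the narrowest range of the 10 genes, 12.26 to 12.48 over all arrays. With tamoxifen it read 12.27 and 12.26 after 12.41 and 12.35 in line A, and 12.48 and 12.48 after 12.45 and 12.44 in line B. The treated arrays lay below the untreated ones in line A and above them in line B, with differences of -0.11 (SE 0.09) and 0.03 (SE 0.09) that did not pass. Separation within a line is common, though: 6 of the 10 genes and 47.6% of all genes separated in line A, and 3 of the 10 and 24.8% of all genes in line B.

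Proliferation markers moved with tamoxifen beside Igf1 and Igfbp3. Of 5 measured, Mki67 (-0.70, SE 0.09; limma adjusted p 0.00587) and Ccna2 (-0.67, SE 0.09; adjusted p 0.00733) fell over both lines. Of all genes, 1.32% passed in that comparison, in either direction. The Ccna2 call was lost without either line A array with tamoxifen (adjusted p 0.0510 and 0.0521). The mean of the 5 lay between 10.43 and 10.51 on arrays without tamoxifen and between 9.91 and 10.18 with it. The 5 differences had a median of -0.57 within line A and of -0.26 within line B. Of 13 fibroblast markers, 11 did not pass, 8 had estimates below 0 and the median difference was -0.02, but 2 rose, the matrix proteoglycans Dcn (0.88, SE 0.15; adjusted p 0.0214) and Lum (1.33, SE 0.17; adjusted p 0.00467). Dcn no longer passed without any 1 of the 4 line A arrays (adjusted p 0.0872, 0.0985, 0.113 and 0.0900), and neither passed with no term for the line (0.104 and 0.44). Of 5 smooth muscle and myofibroblast markers 1 rose, the smooth muscle myosin Myh11 (0.47, SE 0.07; limma adjusted p 0.0101). Myh11 did not pass without replicate 2 of line A without tamoxifen (0.0554), replicate 1 of line A with it (0.0582) or a term for the line (0.55). The part of these marker lists in the rise of Igf1 and Igfbp3 was not tested. In these cultures, more cells that express a gene and more of its RNA per cell cannot be told apart. Of 12 macrophage and blood markers, cells known to express Igf1, 0 passed with tamoxifen, nor did any marker of endothelium (0 of 6), hepatocytes (0 of 5), skeletal muscle (0 of 8), epithelium and mammary gland (0 of 10), adipocytes (0 of 5) or neural crest and glia (0 of 5).

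Between the lines, 0 of the 10 genes passed over both treatments, against 1.47% of all genes, although 4 of the 10 had an unadjusted p under 0.05, against 8.15% of all genes. Binding proteins made up all 4. Igfbp2 differed by -0.40, B minus A (SE 0.13; limma adjusted p 0.32), Igfbp4 by -0.31 (SE 0.11; adjusted p 0.40), Igfbp3 by -0.37 (SE 0.16; adjusted p 0.58) and Igfbp6 by 0.16 (SE 0.06; adjusted p 0.51). Line A and line B arrays separated for Igfbp4, Igfbp6 (7.64 to 7.73 against 7.75 to 7.91) and Igfbp7 (12.26 to 12.41 against 12.44 to 12.48), which is 3 of the 10 genes against 4.89% of all genes. Igfbp7 differed by 0.14 (SE 0.06; limma adjusted p 0.63). Ligands and receptors differed by -0.06 (Igf1, SE 0.07), -0.06 (Igf2, SE 0.10), 0.07 (Igf1r, SE 0.13) and 0.03 (Igf2r, SE 0.08).

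Taken by treatment, 0 of the 10 genes passed between the lines without tamoxifen (0.326% of all genes) and 0 with it (0.532%), and in each 2 of the 10 had an unadjusted p under 0.05, against 1036 and 1340 of all genes. Igfbp3 differed by -0.79, B minus A, with tamoxifen (SE 0.14; limma adjusted p 0.0619) and by 0.05 without it (SE 0.14). With 1 array left out, the Igfbp3 difference with tamoxifen was -0.88 to -0.71. It passed only without either line B array that had no tamoxifen. Those arrays are not part of the comparison, so the difference stayed at -0.79 and the estimate of the spread changed. Over both treatments, macrophage and blood markers were higher in line B, and 5 of 12 passed, against 1.47% of all genes. These were Lyz2 (lysozyme) at 1.83 (SE 0.16; limma adjusted p 0.000327), Tyrobp at 0.73, Fcer1g at 0.62, and Adgre1 and Laptm5 each at 0.59. Without tamoxifen 1 of the 12 passed (0.326% of all genes), and with it 2 (0.532%). The list averaged 6.32 to 6.49 on line A arrays and 6.85 to 7.02 on line B arrays, below the median gene on all of them. By their means over the 8 arrays, though, 2 of the 12 lay above the median gene, the highest at 8.40. Fcer1g did not pass without replicate 2 of line A without tamoxifen (adjusted p 0.0520), and Laptm5, with an array left out, passed only without replicate 1 of either untreated group (otherwise 0.0514 to 0.103). Single genes of other marker lists passed over both treatments too: Thy1 (0.57), Acta1 (0.60), Myh11 (0.63), Emcn (1.05), Lpl (0.80) and Tubb3 (0.85) were higher in line B, and Lum (-1.58) and Fabp4 (-0.53) lower. Acta1 did not pass without any 1 line A array or replicate 2 of line B without tamoxifen (adjusted p 0.0630 to 0.204), and Fabp4, with an array left out, passed only without replicate 1 of either untreated group (otherwise 0.0558 to 0.169). The part of these markers in the values of the binding proteins was not tested.

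Within groups, arrays differed along an axis shared by many genes, drawn from all 4 groups. It held 61.8% of the variance within groups over all genes. With 2 arrays a group, the 2 scores of a group mirror each other by construction. Their size was 0.45 and 0.49 in line B without and with tamoxifen, and 0.22 and 0.06 in line A. In line A without tamoxifen the 2 arrays differed by a median of 0.22 for the 10 genes, against 0.11 over all genes. In line B, replicate 2 without tamoxifen and replicate 1 with it lay at 1 end, and the other 2 line B arrays at the other. Of the 10 genes, 7 (70%) were higher on both arrays of the first end than on the other array of their group, against 30.8% of all genes, and Igfbp3 alone was lower on both. The gap was 0.52 and 0.44 for Igfbp2, without and with tamoxifen, and 0.45 and 0.23 for Igfbp4. It was 0.39 and 1.10 for Igfbp5 and 0.33 and 0.54 for Igf1r, each wider than the tamoxifen difference of that gene in line B. For Igf1 it was -0.08 and 0.07, and for Igfbp7 0.00 and 0.01. For Igfbp2, line B read 8.57 and 8.71 on the high arrays and 8.05 and 8.27 on the low ones. The lines overlapped in that the line B value of 8.71, with tamoxifen, lay above the line A value of 8.65, without it. All other line A values lay above 8.71. What sets the arrays apart was not tested.

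**Figure D4:**
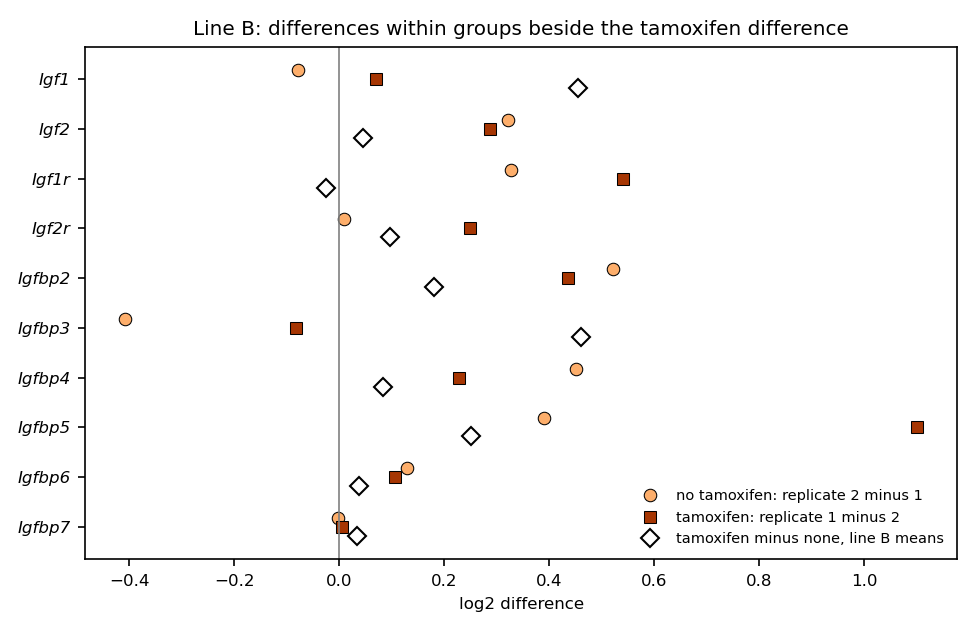
Log2 difference (horizontal axis) in line B for each gene: between the arrays of a group (circles without tamoxifen, replicate 2 minus 1; squares with it, replicate 1 minus 2) and between the group means with and without tamoxifen (diamonds). Igf1 has gaps of -0.08 and 0.07 beside a tamoxifen difference of 0.45, whereas the gaps of Igfbp5 are 0.39 and 1.10 beside a difference of 0.25.

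The rest of the pathway was read from 5 lists of related genes. Of 9 measured further ligands, receptors and binding proteins, 0 passed with tamoxifen over both lines (median difference -0.08, against -0.01 for all genes). They include Igfbp1, the neighbour of Igfbp3 on chromosome 11, which lay between 6.42 and 6.74 and differed by -0.07 (SE 0.09). The acid-labile subunit gene Igfals stood at -0.15 (SE 0.07; limma adjusted p 0.49) and Igf2bp1, an RNA-binding protein of Igf2 mRNA, at -0.30 (SE 0.16; adjusted p 0.63). Of 14 proteases that cut binding proteins and their inhibitors, 0 passed (median 0.03). Stc1, a stanniocalcin that inhibits pappalysin, came nearest, at 0.29 (SE 0.07; limma adjusted p 0.0709), and Pappa, pappalysin itself, stood at 0.34 (SE 0.11; adjusted p 0.27). Stc1 passed without replicate 1 of line B without tamoxifen (0.33), and Pappa without replicate 2 of line B with it (0.45). Neither passed with any other array left out. The range with an array left out was 0.27 to 0.33 for Stc1 and 0.26 to 0.45 for Pappa.

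Downstream of the receptor, 0 of 29 signalling genes passed with tamoxifen (median 0.01). Foxo1, a transcription factor that Akt signalling keeps out of the nucleus, stood at -0.29 (SE 0.06; limma adjusted p 0.0514), on the edge of the threshold. It passed under 4 of the alternatives: a second quantile normalization (0.0394), without the dimmest 30% of genes (0.0426), with array weights (0.0129) and with probe sets averaged by gene (0.0498). Foxo1 did not pass under the other alternatives, at limma adjusted p-values up to 0.61. With an array left out it stood between -0.31 and -0.27 and did not pass. Pik3cb, a catalytic subunit of PI3-kinase, stood at -0.25 (SE 0.07; adjusted p 0.18) and passed with array weights (0.0158). Foxo1 was the 1 signalling gene that passed between the lines, reading 8.30, 8.27, 8.03 and 8.02 in line A and 7.92, 7.87, 7.62 and 7.52 in line B, untreated arrays first. All 4 line B arrays lay below all 4 of line A, and the fall was -0.42 (SE 0.06; adjusted p 0.00746). It missed the threshold without either line A array with tamoxifen (0.0506 in each case).

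Among 16 imprinted growth genes, a group to which Igf2 and Igf2r belong in mice, 1 rose and 1 fell with tamoxifen (median -0.01). Of all genes, 1.32% passed with tamoxifen over both lines, in either direction. Zim1, a zinc finger gene, rose by 0.45 (SE 0.08; limma adjusted p 0.0256), and Slc38a4, an amino acid transporter, fell by 0.61 (SE 0.09; adjusted p 0.0101). Zim1 did not pass without any 1 of the line A arrays (adjusted p 0.113 to 0.131) or with no term for the line, and Slc38a4 did not without replicate 2 of line A without tamoxifen (0.0522) or either line A array with it (0.0552 and 0.0638). Mest, another imprinted gene of fetal growth, was lower in line B than in line A, by -1.07 (SE 0.07; limma adjusted p 7.8e-05), and passed with each array left out. Of 6 CCN genes, matrix proteins with an IGF-binding-protein-like domain, 0 passed with tamoxifen or between the lines. With tamoxifen Ccn3 stood at 0.32 (SE 0.08; limma adjusted p 0.13) and Ccn5 at -0.19 (SE 0.08; adjusted p 0.46), and Ccn3 passed with array weights (adjusted p 0.00907). Between the lines both stood at -0.25 (adjusted p 0.33 and 0.27).

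Between the lines 0 of 9 ligands, receptors and binding proteins and 0 of 14 proteases and inhibitors passed as well. The genes with the smallest p were Ins2 (0.16; limma adjusted p 0.53) and Kazald1 (-0.16; adjusted p 0.54) in the former and Htra1 (0.35; adjusted p 0.40) and Adam12 (0.24; adjusted p 0.40) in the latter. After Foxo1 and Mest, the next in their lists were Pik3r3 (-0.27; limma adjusted p 0.26) and Peg3 (0.33; adjusted p 0.15). Htra1 passed without replicate 2 of line B with tamoxifen (0.50), and Pik3r3 without replicate 1 of line B without it (-0.36). Neither passed with any other array left out. The range with an array left out was 0.24 to 0.50 for Htra1 and -0.36 to -0.23 for Pik3r3. Peg3 passed with the 2 treatments' differences averaged (limma adjusted p 0.0479).

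**Figure D5:**
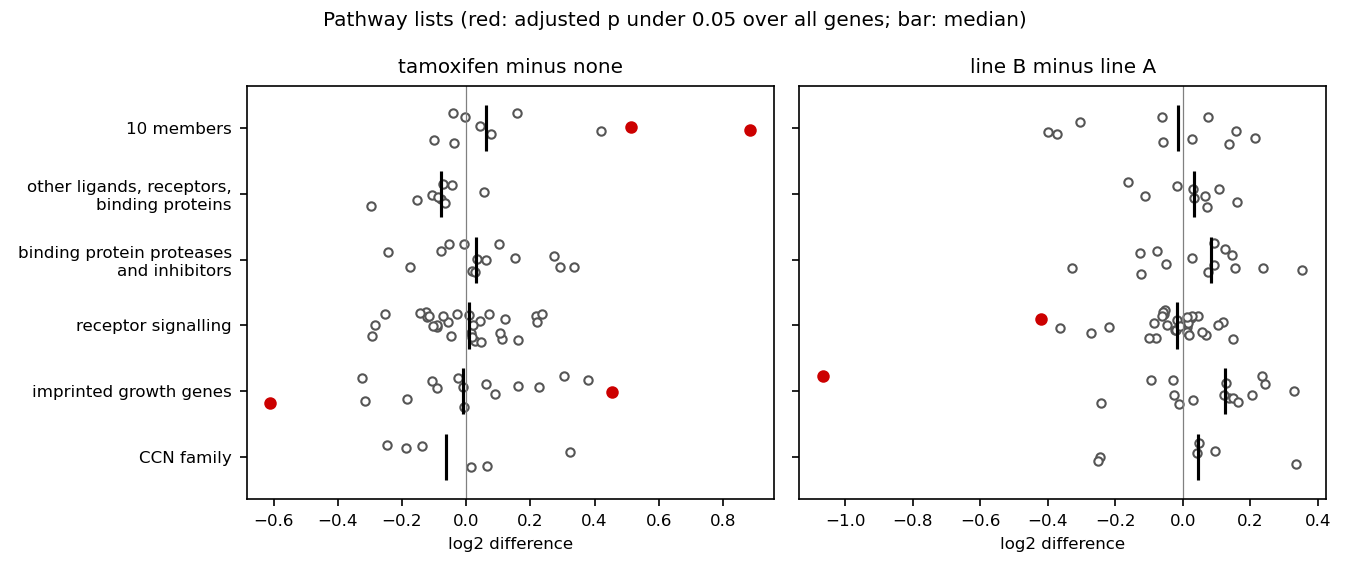
Log2 difference (horizontal axes) of each gene in the 10-gene set and the 5 related lists, with tamoxifen (left) and between the lines (right); red points have an adjusted p under 0.05 over all genes and bars are medians. Red points are Igf1, Igfbp3, Zim1 and Slc38a4 on the left and Foxo1 and Mest on the right.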

How the data were processed

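RNA from 8 fibroblast samples was hybridised to Affymetrix arrays. Per the labels' design text, the authors normalized the intensities by RMA in Expression Console (the sources used here do not give its version), and the deposited table holds log2 values, 1 column a sample. RMA equalises the distributions of the arrays and compresses differences of dim probe sets. The platform annotation gave 1 symbol for 21789 of 35556 probe sets, several for 1621 (left out) and none for 12146. A gene with several probe sets (999 genes) was represented by the one with the highest mean.

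Groups came from the sample titles, and replicate numbers follow sample order and pair nothing. Tests used limma 3.58.1 in R 4.3.3 (lmFit, eBayes), with p-values adjusted by Benjamini-Hochberg across 19938 genes and called under 0.05. Effects over both lines or treatments came from a model of line and tamoxifen, the others from the 4 group means, and the script was tested on simulated data. That simulation drew noise independently for each gene and array, without the axis shared by many genes in these data. The number of arrays, 2 a group, limits the precision.

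The genes named were all 10 members, the 2 genes of each list with the smallest p for tamoxifen and for the line (and Igfbp1, a neighbour), the 3 closest profiles of each gene that passed, and markers set beside a result. Members, lists and markers were chosen with earlier results of these data known. Promoter windows are RefSeq's, build GRCm38.p6: 14 windows matched the 10 genes.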

Additional observations from a re-analysis of the deposited data

How the results depend on the processing

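Of 800 alternative values of single genes of the system, 727 kept direction and side of the threshold, 10 lost a call, 17 gained one and 46 changed sign. This tally overstates stability, since many differences could not change. Each gene has 1 probe set, so averaging probe sets or testing each alone left its difference as it was. Differences within a line also stay the same when arrays of the other line are left out. Most differences had not passed in the main fit. No value that passed changed sign. The number of genes passing over both lines was 1 with no term for the line and 1 to 2 with an array left out, and Igf1 was among them each time. In line A it was 2, with Igf1 added, under array weights, with every probe set tested alone, with line A fitted alone and with either pair of line B arrays left out (replicate 1 without and 2 with tamoxifen, or the other 2, both chosen after seeing the data), and 0 to 1 with an array left out. Between the lines it was 2 with either pair left out, but with no gene in common: Igfbp3 and Igfbp5 with the first pair out, Igfbp2 and Igfbp4 with the second, and Igfbp5 moved from 0.59 with the first pair out to -0.16 with the second. Without tamoxifen it was 1 with the second pair left out. With tamoxifen it was 1 under array weights, with every probe set and with either pair left out, and 0 to 1 with an array left out. In line B it was 0 throughout. Genes passing over both lines among all genes, 263 here, numbered 983 under array weights, 132 with no term for the line, 829 and 493 with the pairs left out, 93, 82, 69 and 58 with a line A array left out (replicates 1 and 2 without tamoxifen, then with it) and 195 to 353 with a line B array left out.

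Sign changes touched only differences that did not pass. Over both lines Igfbp4 was at 0.011 with arrays shifted to a common median, at 0.015 with array weights and at 0.0045 with the second pair left out. With an array left out the ranges were -0.12 to 0.032 (Igf2), -0.048 to 0.16 (Igfbp2) and -0.11 to 0.074 (Igfbp4). In line A Igfbp2 was at 0.0032 after the median shift, and with an array left out the ranges were -0.27 to 0.010 (Igf2), -0.35 to 0.0042 (Igf1r), -0.19 to 0.14 (Igfbp2) and -0.24 to 0.059 (Igfbp4). In line B Igfbp7 was at -0.033 after a second quantile normalization. With the first pair left out Igf1r was at 0.080 and Igfbp4 at -0.027, and with the second Igf2r at -0.024 and Igfbp5 at -0.10. With an array left out the line B ranges were -0.12 to 0.21 (Igf2), -0.30 to 0.24 (Igf1r), -0.029 to 0.22 (Igf2r), -0.081 to 0.44 (Igfbp2), -0.14 to 0.31 (Igfbp4), -0.30 to 0.80 (Igfbp5) and -0.026 to 0.10 (Igfbp6). Between the lines Igf2 was at 0.030 with array weights and 0.094 with the first pair left out, and Igf1r at -0.14, Igf2r at -0.037 and Igfbp5 at -0.16 with the second. With an array left out the ranges were -0.13 to 0.023 (Igf2), -0.049 to 0.17 (Igf1r) and -0.017 to 0.090 (Igf2r). Igfbp3 between the lines without tamoxifen was at -0.15 with the first pair left out and -0.15 to 0.26 with an array left out. The cause of these changes was not tested, beyond fewer arrays in the fit. A lone array left in a group was assumed to vary like the other groups. No paired analysis was possible because the labels number no replicates.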
